A study of Homo sapiens with 2 samples.

Results

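Receptor tyrosine kinases and their ligands were followed by RNA-Seq in A1847, a line of human ovarian cancer cells, before and after knockout of CARM1. CARM1 is an arginine methyltransferase that modifies histones and other chromatin proteins. The members were 34 receptors and 23 ligands fixed as a list by gene symbol, 57 genes of the 57736 in the deposited table, with the Eph receptors and the IGF receptor left out. One group was parental A1847 cells, labelled CARM1 wild type, and the other was CARM1 KO A1847 cells, labelled CARM1 knockout and made with a CRISPR guide RNA in a lentiviral vector. The CARM1 KO line was 1 clone, both lines were grown in the same serum-containing medium, and each was sequenced as 1 library of total RNA. With 1 library per group there is no replicate check on any difference, and a feature of the clone cannot be told apart from an effect of CARM1 loss.

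A receptor tyrosine kinase spans the plasma membrane, binds a secreted or membrane-held ligand on the outside and phosphorylates tyrosines on the inside, which recruits adaptors of the RAS, PI3-kinase and PLC-gamma pathways. A cell that makes both a receptor and its ligand can stimulate itself, and a cell that makes only one of the pair depends on, or acts on, its neighbours. In epithelial tumours the ERBB receptors, MET and AXL are the receptors most often discussed, while PDGF receptors and DDR2 are better known from fibroblasts and other mesenchymal cells, where HGF is also made.

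The parental library held 30741953 reads and the CARM1 KO library 32300391. The targeted gene CARM1 had 975 parental and 380 CARM1 KO reads, 2.63-fold fewer after scaling (95% interval 2.33 to 2.97). This fold did not reach the threshold for a call given below. The study examined the knockout by immunoblot of CARM1 protein, which read counts do not measure. Intervals here are exact binomial ones for the reads of each gene and cover counting error only. Because RNA was taken in bulk, fewer cells of a type and less RNA per cell cannot be told apart. The identity of the cells was checked with 16 markers of ovarian epithelium. KRT18, KRT8 and KRT7, keratins of simple epithelium, had 21154, 17600 and 4417 reads in parental cells, whereas MUC16 and SOX17 had 0 reads there and the transcription factor gene WT1 had 8. In CARM1 KO cells MUC16, SOX17 and WT1 had 1, 2 and 1 reads. Not all markers beside the keratins were so low. PAX8, MSLN and FOLR1 stood at 311, 201 and 59 parental reads, and at 1149, 1188 and 264 after knockout. CLDN3, CLDN4 and CDH1 were low in the parental library at 0, 2 and 3 reads, against 10, 0 and 53 after knockout. The summed level of the 16 markers in CPM, reads scaled to library size, was 1416 in parental and 4761 in CARM1 KO cells. Most of both sums came from KRT18, KRT8 and KRT7, at 679, 565 and 142 CPM in parental cells. In CARM1 KO cells these 3 stood at 1606, 2207 and 836 CPM, so the sums say little about the other markers.

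A gene was called when its scaled level differed more than 3-fold between the libraries, the fold threshold of the study, and its counting interval lay on one side of no change. A count under 3 was set to 3 for this fold. Of the 57 members, 51 had at least 10 reads in both libraries together and could be called. Among them 18 were higher in CARM1 KO cells, 6 were lower and 27 were not called. Across all 18563 genes with at least 10 reads, 12.3% were called higher and 11.2% lower, and across the 14140 protein-coding genes among them 12.4% were higher and 9.02% lower. The share of members called higher was thus 35.3% against 12.3% of all genes, and the share called lower was 11.8% against 11.2%. The members were chosen with earlier results of these data known, so these shares describe this list only. The median log2 fold change was 1.03 over the members and -0.03 over all genes. A wider spread than counting error ended many of these calls. In edgeR's exact test with an assumed biological coefficient of variation of 0.4, 6 members were higher and 5 were lower, against 2.93% and 4.78% of all genes. The calls of EGFR, MET, AXL, FGF2, PDGFA, GAS6 and CSF1 were among those lost, and those of HGF, PDGFRA, ERBB4, DDR2, FGF18, ERBB3 and NRG1 were not.

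**Figure D1:**
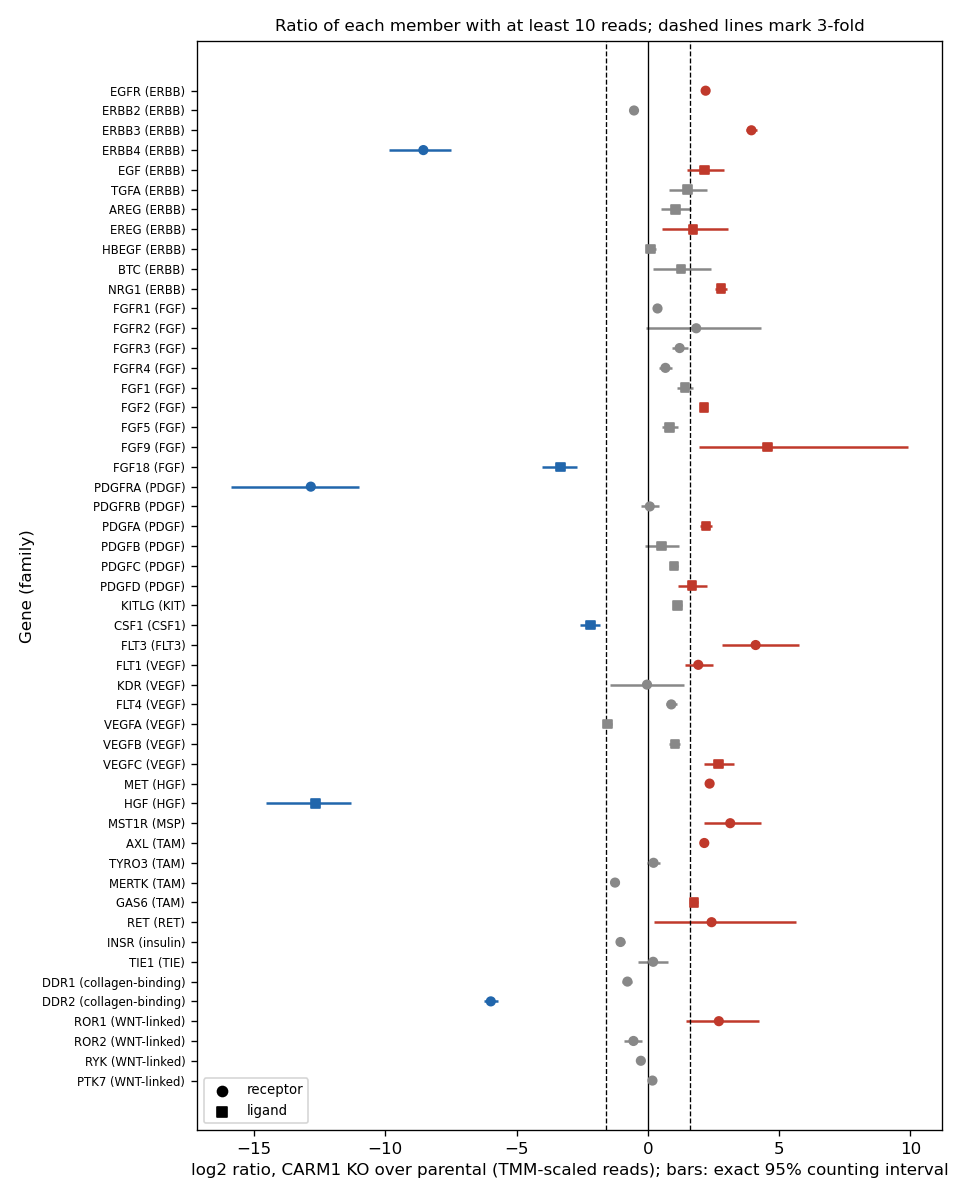
Log2 ratio of CARM1 KO over parental cells for the 51 members with at least 10 reads, ordered by family, with circles for receptors and squares for ligands, red for called higher, blue for called lower and grey for not called. Bars are exact 95% counting intervals and dashed lines mark the 3-fold threshold. PDGFRA and HGF lie farthest to the left and ERBB4 and DDR2 follow, while the 18 members called higher lie to the right of the upper dashed line.

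Upstream sequences are shown for the 4 members that differed most downwards and for MET and EGFR, the receptors of HGF and EGF, because the Polycomb complexes that the study was concerned with are known to act at CG-rich promoters. RefSeq promoters on GRCh38.p14 were found for 48 members. There was no entry for ERBB3, NRG1, FGFR1, FGF9, PDGFB, PDGFC, CSF1, FLT4 and VEGFA. For each gene the 250 bases before its 5′-most listed start were read, and the dinucleotide CG, which reads the same on both strands, was counted. CG occurred at least once in 98.9% of the 11301 promoters of tested protein-coding genes, with a median of 21. The median was 24 for the 15 members called higher, 8 for the 5 called lower and 25.5 for the 22 not called. Over all protein-coding genes the medians were 18 for those called higher, 16 for those called lower and 21 for those not called. The sequences below run 5′ to 3′ towards the start, and capitals mark each CG. Each matched GRCh37 exactly once, at chr7:81399364-81399613 on the minus strand for HGF, chr4:55095210-55095459 on the plus strand for PDGFRA, chr2:213403527-213403776 on the minus strand for ERBB4, chr1:162600403-162600652 on the plus strand for DDR2, chr7:116312000-116312249 on the plus strand for MET and chr7:55086460-55086709 on the plus strand for EGFR.
HGF: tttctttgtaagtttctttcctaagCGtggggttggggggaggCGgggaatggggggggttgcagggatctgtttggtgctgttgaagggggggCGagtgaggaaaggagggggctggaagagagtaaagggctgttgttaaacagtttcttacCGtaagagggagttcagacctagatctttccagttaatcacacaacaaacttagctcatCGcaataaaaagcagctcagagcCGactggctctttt
PDGFRA: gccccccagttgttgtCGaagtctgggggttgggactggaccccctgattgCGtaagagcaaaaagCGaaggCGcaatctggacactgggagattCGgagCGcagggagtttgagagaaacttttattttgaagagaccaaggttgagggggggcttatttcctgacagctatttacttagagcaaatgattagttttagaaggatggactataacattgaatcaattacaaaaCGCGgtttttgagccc
ERBB4: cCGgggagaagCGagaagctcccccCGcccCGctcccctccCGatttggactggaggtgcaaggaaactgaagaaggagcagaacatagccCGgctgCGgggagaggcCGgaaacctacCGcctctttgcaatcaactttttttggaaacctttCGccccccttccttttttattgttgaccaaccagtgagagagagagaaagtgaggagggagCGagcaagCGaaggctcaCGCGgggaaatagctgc
DDR2: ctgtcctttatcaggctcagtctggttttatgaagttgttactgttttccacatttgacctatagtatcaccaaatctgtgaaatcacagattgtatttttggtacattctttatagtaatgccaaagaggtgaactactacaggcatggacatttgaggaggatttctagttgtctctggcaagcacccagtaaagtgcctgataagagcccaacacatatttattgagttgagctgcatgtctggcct
MET: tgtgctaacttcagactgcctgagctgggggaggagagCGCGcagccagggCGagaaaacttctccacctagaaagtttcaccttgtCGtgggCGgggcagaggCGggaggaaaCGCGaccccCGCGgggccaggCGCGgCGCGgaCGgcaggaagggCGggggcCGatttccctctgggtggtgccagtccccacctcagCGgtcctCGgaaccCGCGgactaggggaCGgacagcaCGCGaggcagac
EGFR: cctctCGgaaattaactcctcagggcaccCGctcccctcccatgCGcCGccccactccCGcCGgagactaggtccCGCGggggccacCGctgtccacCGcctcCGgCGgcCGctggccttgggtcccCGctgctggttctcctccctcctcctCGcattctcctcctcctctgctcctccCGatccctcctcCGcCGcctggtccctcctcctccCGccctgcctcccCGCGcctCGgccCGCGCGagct
These windows held 6 CGs for HGF, 8 for PDGFRA, 14 for ERBB4 and 0 for DDR2, and 24 for MET and 25 for EGFR. The printed genes were picked by the size of their fall or as receptors of HGF and EGF, so their counts describe only them. Among them the 4 that were lower in CARM1 KO cells had fewer CGs than both that were higher. The separation did not extend to all members. FGF18, which was also lower, had 31, and AXL, EGF and EREG, which were higher, had 4, 3 and 11. The part of CG content in the differences was not tested. The GENCODE gene of HGF runs from 81328326 to 81399754, so the HGF window lay inside it. The windows of PDGFRA and ERBB4 overlapped their GENCODE genes in part. The DDR2 window ended at 162600652, before its GENCODE gene start at 162601163, so its count is not that of the bases next to that start.

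HGF and MET moved in opposite directions. HGF, the ligand of MET, is made mostly by mesenchymal cells and stimulates growth and scattering of epithelial cells. HGF had 25283 reads in the parental library and 4 in the CARM1 KO library, a level 6472-fold lower (95% interval 2527 to 23754). MET, its receptor, rose from 859 reads in the parental library to 4486 in the CARM1 KO library, 5.10-fold (95% interval 4.74 to 5.49). In RPKM, which is CPM divided by the kilobases of merged exons, the level of HGF was 83.2 and that of MET was 3.82 in parental cells, while in CARM1 KO cells HGF stood at 0.0129 and MET at 19.5. HGF was therefore the highest ligand of the list in parental cells, with 67.4% of the summed ligand level, and the lowest in CARM1 KO cells. The related receptor MST1R, which binds macrophage-stimulating protein, rose from 9 to 81 reads, 8.79-fold (95% interval 4.41 to 19.9). Its ligand gene MST1 had 45 and 31 reads, and part of these may belong to near-identical copies. HGF is secreted as an inactive precursor. The genes of the inhibitors of its activation, SPINT1 and SPINT2, were both higher in CARM1 KO cells, SPINT1 with 1 and 44 reads, a 43.0-fold ratio with an interval of 7.32 to 1736, and SPINT2 with 295 and 2087. Of the listed proteases that can activate it, PLAU had 534 and 838 reads and was not called, and PLAT rose from 214 to 1608 reads. HPN had 0 reads in both libraries, HGFAC had 1 in each, and ST14 had 2 and 8.

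Among the PDGF genes PDGFRA was lower and 2 of the 4 ligands were higher. PDGFRA, the receptor of PDGF-A and PDGF-C, had 14326 reads in the parental library, the most of any receptor, and 2 in the CARM1 KO library. The ratio of scaled reads was 7334-fold lower (95% interval 2030 to 60564). PDGFRB, its partner receptor, had 132 and 142 reads, a ratio of 1.05 (95% interval 0.823 to 1.34). PDGFA rose from 187 to 882 reads, 4.61-fold (95% interval 3.93 to 5.42), and PDGFD, a ligand of PDGFRB, rose from 37 to 122 reads, 3.22-fold (95% interval 2.21 to 4.79). PDGFC had 640 and 1306 reads, a ratio of 1.99 that was under the threshold, and PDGFB had 36 and 53 reads. The summed level of both receptors was 48.8 RPKM in parental and 0.631 in CARM1 KO cells, and that of the 4 ligands was 5.30 and 14.2.

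Of the collagen receptors, DDR2 was lower and DDR1 was not called. DDR2, which is activated by fibrillar collagen, fell from 7477 to 121 reads, 63.3-fold lower (95% interval 52.9 to 76.4). DDR1, the form usual in epithelia, had 602 and 359 reads, 1.72-fold lower and under the threshold. The collagen genes COL1A2 and COL3A1, whose products DDR2 binds, had 16732 and 14587 reads before and 3 and 1 reads after knockout, while COL1A1 rose from 131 to 537 reads.

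Because PDGFRA, DDR2 and HGF are usual in fibroblasts, the fibroblast markers were read beside them. Of 11 markers, 9 had at least 10 reads, of which 6 were lower in CARM1 KO cells and 1 was higher. The summed level of the 11 was 2102 CPM in parental and 28.4 in CARM1 KO cells. Most of the parental sum came from POSTN, COL1A2 and COL3A1, at 1047, 537 and 468 CPM. Most of the CARM1 KO sum came from COL1A1, the marker that was higher, at 16.8 CPM. The sums thus say little about the other markers. POSTN fell from 32601 to 7 reads and THY1 from 678 to 4, beside COL1A2 and COL3A1 above. DCN and LUM were also lower, with 24 and 61 parental reads and 0 and 1 after knockout. FBLN1 had 517 and 206 reads and PDGFRB, also on this list, had 132 and 142, and neither was called. FAP had 2 and 3, and DPT had 0 in both libraries. Of the ovarian epithelial markers, 8 of the 12 with at least 10 reads were higher and 2 were lower. EPCAM rose from 249 to 848 reads and KRT7 from 4417 to 26653. The 2 lower were CDH6 with 46 and 1 reads and the keratin gene KRT19 with 45 and 0. The part of these markers in the differences of PDGFRA, DDR2 and HGF was not tested.

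In the ERBB family the order of the receptors differed between the libraries. ERBB4, a receptor of neuregulins with an active kinase, fell from 2568 to 7 reads, 376-fold lower (95% interval 182 to 935). ERBB3, which also binds neuregulins but has little kinase activity of its own, rose from 196 to 3085 reads, 15.4-fold (95% interval 13.3 to 17.9). EGFR, the receptor of EGF and its relatives, rose from 1096 to 5152 reads, 4.59-fold (95% interval 4.30 to 4.90). ERBB2, the partner without a known ligand, had 1399 and 993 reads, 1.44-fold lower and not called. In RPKM, the order in parental cells was ERBB4 at 6.34, ERBB2 at 4.35, EGFR at 2.21 and ERBB3 at 0.537. In CARM1 KO cells it was EGFR at 10.1, ERBB3 at 8.26, ERBB2 at 3.02 and ERBB4 at 0.0169. The order depended on the length used. With the longest transcript ERBB2 at 9.11 stood above ERBB4 at 6.82 in parental cells, and EGFR and ERBB3 were still the highest in CARM1 KO cells at 16.3 and 15.4.

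Of the 7 ERBB ligands among the members, 3 were higher and 4 were not called, while of the other neuregulins NRG3 and NRG4 were lower. NRG1, a neuregulin that binds ERBB3 and ERBB4, rose from 180 to 1262 reads, 6.85-fold (95% interval 5.85 to 8.05). A gene that overlaps NRG1 on the same strand, RP11-1002K11.1, had 30 and 203 reads, and whether reads were shared is not known. EGF rose from 22 to 100 reads, 4.44-fold (95% interval 2.78 to 7.40), and EREG from 8 to 27 reads, with an interval of 1.46 to 8.40. TGFA, AREG and BTC had ratios of 2.85, 2.07 and 2.40 on 90, 128 and 38 reads in both libraries together, and were under the threshold. HBEGF, the highest of these ligands per kilobase in parental cells at 4.35, had 405 and 447 reads. Outside the list, NRG4 fell from 119 to 3 reads and NRG2 had 42 and 34. NRG3 had 14 and 0 reads and was at least 3.40-fold lower by its 95% interval.

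**Figure D2:**
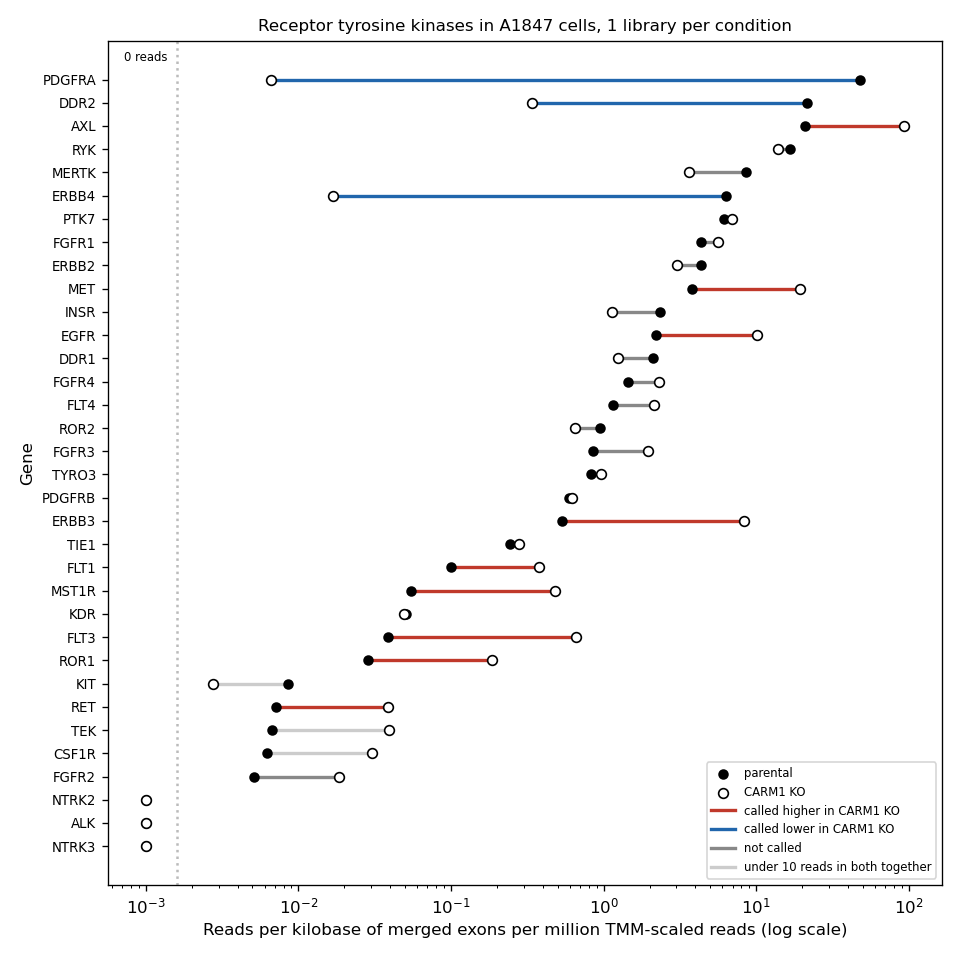
Level of each of the 34 receptors in parental (filled) and CARM1 KO cells (open), in RPKM on a log axis, ordered by the parental level. PDGFRA falls from the highest place to 0.00657, AXL takes the highest place at 93.2, and NTRK2, NTRK3 and ALK, with 0 reads in both libraries, are drawn left of the dotted line.

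AXL was the highest receptor per kilobase in CARM1 KO cells. AXL, TYRO3 and MERTK bind GAS6, and act in survival and in the uptake of dying cells. The related protein PROS1 is a ligand of TYRO3 and MERTK but not of AXL. AXL rose from 3361 to 15250 reads, 4.43-fold (95% interval 4.27 to 4.60), and GAS6 rose from 402 to 1389 reads, 3.37-fold (95% interval 3.02 to 3.78). AXL held 13.6% of the summed receptor level in parental cells and 52.4% in CARM1 KO cells. With the longest transcript in place of the merged exons as the length, these shares were 10.5% and 43.7%. MERTK had 1110 and 477 reads, 2.38-fold lower and under the threshold, and TYRO3 had 277 and 329. PROS1, the ligand of TYRO3 and MERTK, had 1351 and 1445 reads.

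Of the FGF ligands 2 were higher and 1 was lower, and none of the 4 FGF receptors was called. FGF2, a growth factor that lacks a classical secretion signal, rose from 2199 to 9885 reads, 4.39-fold (95% interval 4.19 to 4.60), and held 46.3% of the summed ligand level in CARM1 KO cells, the largest share there. FGF2 overlaps NUDT6 on the opposite strand, which had 384 and 424 reads, and it is not stated whether strand was used in counting. FGF18 fell from 226 to 23 reads, 10.1-fold lower (95% interval 6.54 to 16.2). FGF9 had 1 and 24 reads, a 23.4-fold ratio with an interval of 3.82 to 964. FGF1 and FGF5 had ratios of 2.66 and 1.78 and were not called. FGFR1, the highest receptor of the family, had 2347 and 3097 reads, a ratio of 1.29. FGFR3 and FGFR4 had ratios of 2.31 and 1.59, and FGFR2 had 3 and 11 reads, with an interval that included no change. Outside the list, FGF7 and FGF10, ligands of mesenchymal origin for an FGFR2 form, were both lower. FGF7 had 44 and 8 reads. FGF10 had 47 and 0 reads, at least 12.5-fold lower by its 95% interval. FGF7 has pseudogene copies that share its sequence, so its count is uncertain.

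In the VEGF group VEGFC and FLT1 were higher and no member was lower, and CSF1 was lower. VEGFA, the main growth factor of blood vessels, had 963 and 338 reads, 2.92-fold lower (95% interval 2.57 to 3.31) and just inside the threshold. VEGFC, which acts on lymphatic vessels, rose from 31 to 205 reads, 6.46-fold (95% interval 4.41 to 9.75), and VEGFB had 274 and 571 reads, a ratio of 2.04. FLT4, the receptor of VEGFC, had 319 and 606 reads, a ratio of 1.86, and KDR, the main receptor of VEGFA, had 10 in each library. FLT1, a receptor of VEGFA and VEGFB, rose from 39 to 151 reads, 3.78-fold (95% interval 2.64 to 5.53). PGF, a ligand of FLT1 outside the list, fell from 129 to 34 reads, 3.88-fold lower (95% interval 2.64 to 5.85). Endothelial markers were at or near 0, with 0 reads of CDH5 in both libraries and 1 and 2 reads of VWF, but ERG rose from 38 to 172 reads, and the summed level of the 7 endothelial markers found was 1.64 and 6.40 CPM. The endothelial receptors TEK and TIE1 had 1 and 51 parental reads and 6 and 60 reads after knockout. CSF1, the growth factor of macrophages, fell from 334 to 75 reads, 4.56-fold lower (95% interval 3.54 to 5.94), and its receptor CSF1R had 1 and 5 reads. IL34, the other ligand of CSF1R, had 0 and 16 reads and was at least 3.77-fold higher by its 95% interval. FLT3, a receptor of blood progenitors, rose from 5 to 88 reads, 17.2-fold (95% interval 7.09 to 54.3), while the leukocyte marker PTPRC had 6 and 0 reads. The 8 blood cell markers summed to 13.1 and 52.3 CPM, most of it from CD68 with 400 and 1644 reads, and their part in the differences of CSF1 and FLT3 was not tested. KITLG, the ligand of KIT, had 460 and 1027 reads, a ratio of 2.18, and KIT had 3 and 1.

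**Figure D3:**
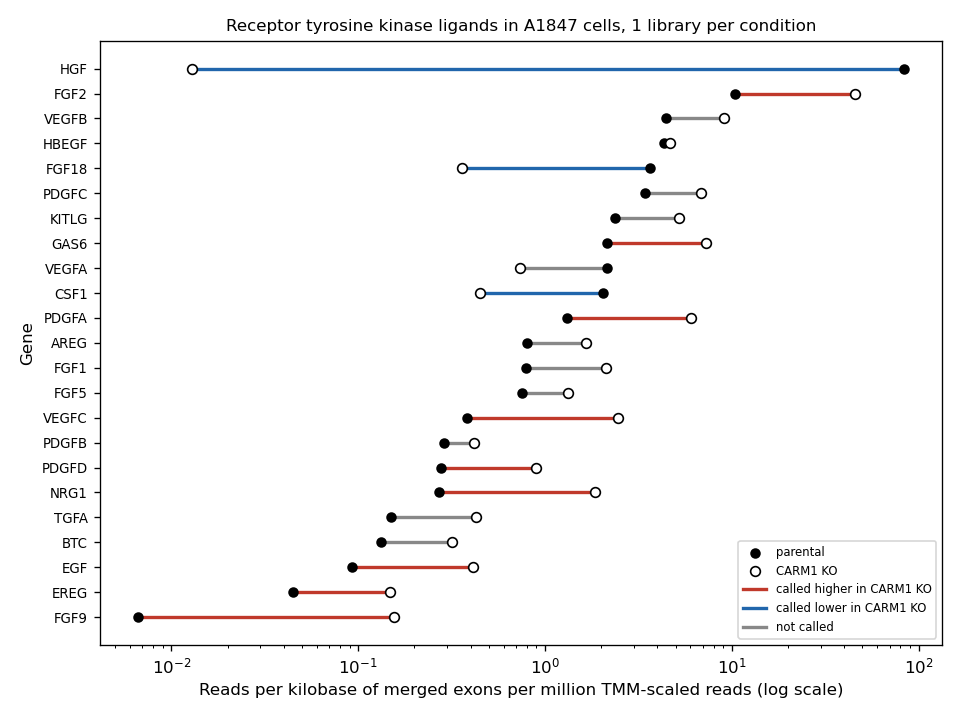
Level of each of the 23 ligands in parental (filled) and CARM1 KO cells (open), in RPKM on a log axis, ordered by the parental level. HGF falls from 83.2 to 0.0129, and FGF2 is the highest ligand in CARM1 KO cells at 45.6.

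Among the remaining receptors ROR1 and RET were higher, on few reads, and the others were not called or not detected. RYK and PTK7, WNT-linked receptors without a normally active kinase, were among the highest receptors in both libraries, with 4264 and 3625 reads for RYK and 1717 and 1982 reads for PTK7. ROR1, a receptor of WNT5A, had 6 and 40 reads, 6.51-fold higher with an interval of 2.74 to 18.8, but overlaps ROR1-AS1 on the opposite strand with 85 and 98 reads. ROR2 had 173 and 121 reads and was not called, and WNT5A rose from 28 to 164 reads. INSR, the insulin receptor, had 787 and 391 reads, 2.06-fold lower and under the threshold. RET, the receptor of the GDNF family, had 2 and 11 reads, a 5.37-fold ratio with an interval of 1.17 to 49.9. Its co-receptor GFRA1 rose from 153 to 3042 reads, 19.4-fold (95% interval 16.5 to 23.0), and GDNF from 6 to 32 reads. NTRK2 and NTRK3, the receptors of BDNF and neurotrophin 3, and ALK had 0 reads in both libraries. The floor of 3 reads used for folds corresponds to 0.0963 CPM in parental and 0.0941 in CARM1 KO cells. BDNF rose from 734 to 3353 reads, 4.46-fold (95% interval 4.12 to 4.84).

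Of 161 genes in 6 further lists, 132 had at least 10 reads, of which 27 were higher and 17 were lower, 20.5% and 12.9% against 12.3% and 11.2% of all genes, and their median log2 fold change was 0.26. At an assumed coefficient of variation of 0.4, 6 were higher and 8 were lower. Among other ligands 6 of 25 were higher and 8 were lower, 24% and 32% against 12.3% and 11.2% of all genes. For the ligands among the members these shares were 39.1% and 13.0%. The 8 lower included MDK, or midkine, a heparin-binding growth factor. MDK fell from 5380 to 447 reads, 12.3-fold lower (95% interval 11.2 to 13.6). Among co-receptors 3 of 10 were higher and 1 was lower, 30% and 10%. CD44, a hyaluronan receptor that assists MET, rose from 2407 to 10946 reads. NRP1 and NRP2, the neuropilins that bind VEGF, moved apart, NRP1 from 172 to 550 reads and NRP2 from 41 to 12. The syndecans SDC4 and SDC1, the highest co-receptors per kilobase, had ratios of 2.84 and 0.801 and were not called. Among other receptors 2 of 6 were higher, including STYK1 from 46 to 210 reads, and 1 was lower, LMTK3 from 49 to 5. These shares were 33.3% and 16.7%.

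Among adaptors and signal relays 38 of 50 were not called, 7 were higher and 5 were lower. These shares of 14.0% and 10.0% were near the 12.3% and 11.2% of all genes, and the genes named here are a description of the list. GRB2, the adaptor that links receptors to RAS, had 4370 and 3275 reads, and NRAS and CRK, the highest of the list per kilobase, had ratios of 1.51 and 1.59. The PI3-kinase regulatory subunits PIK3R1 and PIK3R3 fell 3.63-fold and 3.73-fold and the catalytic subunit PIK3CD rose 5.15-fold. IRS1, an adaptor of the insulin receptor, fell from 1080 to 363 reads and its relative IRS2 rose from 122 to 615. SHC2 had 51 and 1 reads, SHC3 had 5 and 36, and GRB10 had 180 and 44. FYN, PLCG2 and STAT5A rose 5.78-fold, 3.95-fold and 5.86-fold.

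Of 27 receptor brakes tested, 5 were higher and 1 was lower, 18.5% and 3.70% against 12.3% and 11.2% of all genes. The receptor-type phosphatases PTPRB, PTPRF, PTPRJ and PTPRK, which can remove phosphate from receptor tyrosine kinases, rose 10.2-fold, 3.25-fold, 3.47-fold and 4.56-fold, and LRIG1, a brake on ERBB receptors and MET, rose 3.11-fold. SOCS2 fell from 4652 to 166 reads, 28.7-fold lower (95% interval 24.6 to 33.7). PTPN1, the highest of the list per kilobase, had a ratio of 1.58 and was not called. CBL, the ubiquitin ligase that removes activated receptors, had 2050 and 1956 reads, and ERRFI1, an inhibitor of EGFR, had 2833 and 2646. In the list of 14 tested proteases, activators and their inhibitors, 4 were higher and 1 was lower, 28.6% and 7.14%. The 4 were the inhibitor genes SPINT1 and SPINT2 and the protease genes PLAT and PCSK5, and the protease gene PCSK6 fell from 322 to 106 reads. ADAM17, which frees most ERBB ligands from the membrane, had 2793 and 2778 reads, ADAM10 had 4059 and 5741, and ADAM9 had 9199 and 25741 at a ratio of 2.73.

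**Figure D4:**
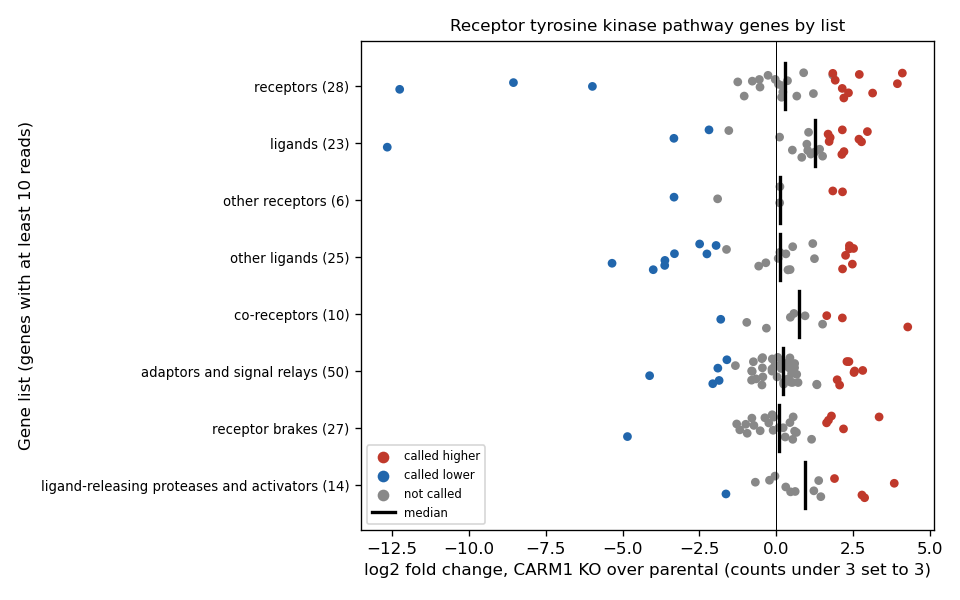
Log2 fold change of CARM1 KO over parental cells for genes with at least 10 reads in 8 lists, with 1 point per gene, colour for the call and a black bar for the median. Points are spread at random in height within a list, and the medians run from 0.09 for receptor brakes to 1.26 for ligands.

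The chromosomal surroundings of the members were described from their nearest protein-coding genes with at least 10 reads, up to 5 on each side. For PDGFRA, on chromosome 4 of GRCh37 from 55095447 to 55164412, the median log2 fold change of the 10 neighbours was 0.00, with 1 lower and 0 higher. For DDR2 on chromosome 1 it was -0.13 with 3 of 10 lower and 2 higher, and for ERBB4 on chromosome 2 it was -0.71 with 2 lower and 1 higher. For HGF on chromosome 7 it was -1.84, with 5 of 10 neighbours lower and 1 higher over 7.20 Mb. VEGFC rose although the median of its neighbours was -1.78, with 6 of 10 lower and 0 higher. The neighbours of MET and EGFR, both also on chromosome 7, had medians of 0.75 and 0.03, with 1 lower in each set and 3 and 0 higher. DNA copy number was not measured, so its part in these values was not tested.

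**Figure D5:**
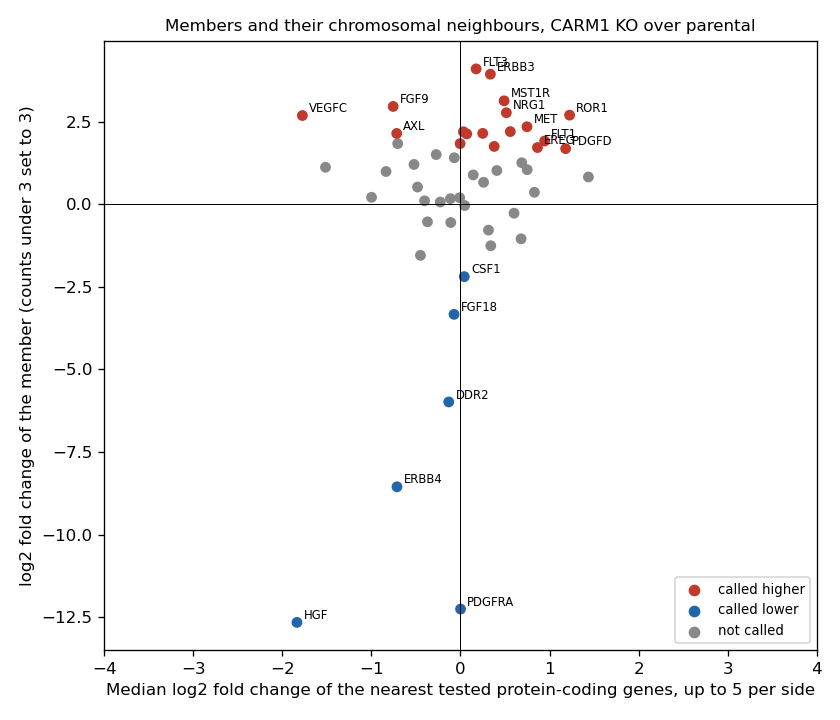
Log2 fold change of each member with at least 10 reads against the median log2 fold change of its nearest tested protein-coding neighbours, coloured by call. PDGFRA lies at -12.26 above a neighbour median near 0, HGF at -12.66 with a neighbour median of -1.84, and VEGFC at 2.69 with -1.78.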

How the data were processed

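RNA-Seq counts of 1 parental and 1 CARM1 KO library were used. The authors aligned the paired reads to hg19 with bowtie2 and deposited estimated counts per Ensembl gene from RSEM, as whole numbers without scaling. The Ensembl release and any use of strand in counting are not given in the sources used here. Reads that fit several near-identical genes are shared out among them by RSEM.

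Symbols came from GENCODE lifted to GRCh37, which named 55501 of 57736 identifiers. Counts were scaled by TMM in edgeR 4.0.16 (R 4.3.3). Intervals were exact 95% binomial ones (scipy 1.17.1). CPM and RPKM were computed from the scaled counts, RPKM with the length of the merged annotated exons. No p-value is given, since 1 library per group leaves edgeR's quasi-likelihood fit without residual degrees of freedom. The steps were tested on simulated data. The members and lists were chosen with earlier results of these data known. By rule any member, CARM1 and any marker could be named, and other listed genes when called or among the 2 highest per kilobase. MST1, NRG2, HPN, HGFAC, ST14, PLAU, GRB2, CBL and ADAM17 were chosen after their values were seen. Some called genes of the other lists are not reported here. PECAM1 did not match the annotation and was not analysed here. Alternatives were scaling by library size, by DESeq2 1.42.0 size factors or by the upper quartile, minimums of 1 and 50 reads, an interval wholly past the threshold, and edgeR's exact test with assumed coefficients of variation of 0.12 and 0.4 at an FDR of 0.05. Depth was 30741953 and 32300391 reads.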

Additional observations from a re-analysis of the deposited data

How the results depend on the processing

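The spread assumed between libraries moved the calls most. With edgeR's exact test at a coefficient of variation of 0.4, 6 members were higher against 18, and 5 were lower against 6. The calls of 13 members were lost there, those of EGFR, EGF, EREG, FGF2, PDGFA, PDGFD, CSF1, FLT1, MET, AXL, GAS6, RET and ROR1, because the test assumes a wider spread. Of the other pathway genes, 6 were higher and 8 lower there, against 27 and 17, alternatives chosen after seeing the data. Over all genes, 543 were higher and 888 lower at 0.4, and 1292 and 1234 with the whole interval past the threshold, against 2277 and 2070. At 0.12, RET alone lost its call. With the whole interval past it, 12 members were higher, EGF, EREG, PDGFD, FLT1, RET and ROR1 lost their calls, and 11 other pathway genes were lower. With at least 50 reads the median log2 fold change of the members was 0.86. Library size only, DESeq2 size factors, upper-quartile scaling and a minimum of 1 read left 18 members higher and 6 lower. Of 401 comparisons of single members across these settings, 381 kept their call and none reversed. The read minimums, the interval rule and the exact tests used the same fold as the main setting, so no direction could reverse there. A read minimum could not change the call of a single member either. The count of kept calls was therefore partly fixed in advance. With the longest transcript as the length, levels were up to 2.77 times as high. No paired analysis was possible because each group holds 1 library, which also prevents leaving a library out.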

Other observations

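Several members lie side by side in the genome, and their values are given here as a description. PDGFRA, KIT and KDR follow one another on chromosome 4 of GRCh37, with gaps of 359 and 338 kb. PDGFRA had 14326 parental and 2 CARM1 KO reads, while KIT had 3 and 1 and KDR had 10 in each. EREG, AREG and BTC, ligands of the ERBB family, also lie together on chromosome 4 and had 8, 41 and 11 parental reads and 27, 87 and 27 after knockout. FLT3 and FLT1 lie 200 kb apart on chromosome 13, and both rose, from 5 to 88 and from 39 to 151 reads. CSF1R ends 0.467 kb from PDGFRB on chromosome 5, with 1 and 5 reads against 132 and 142.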
